A study of Mus musculus with 6 samples.

Results

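The genes described here encode the RUNX transcription factors, their partner CBF-beta, and the Groucho/TLE and ETO families of co-repressors, in CD4+ dendritic cells (DC) that lack Runx3. Members were the probe sets annotated with one of 9 symbols alone, Runx3, Runx1, Runx2, Cbfb, Cbfa2t2, Cbfa2t3, Tle1, Tle3 and Tle4. Of these genes 8 were measured, by 10 probe sets, among 9922 named genes tested in all, and Runx2 was not analysed here. The cells were CD11c+ MHCII+ CD4+ DC sorted from the spleens of male mice aged 6 weeks, 3 with genotype Runx3-/- and 3 with genotype Runx3+/+ (WT), and each mouse gave 1 Affymetrix array. Each Runx3-/- mouse had a WT littermate, so the arrays form 3 litter pairs, numbered 1 to 3. The labels give the genotype as Runx3-/-, in which other cells of the animal lack the gene too, while a legend of the study calls CD4+ DC arrays by its name for conditional deletion, and the labels are followed here. Neither the strain nor the structure of the allele is described in the labels or methods.

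RUNX proteins bind DNA through their conserved Runt domain and recognise the hexamer TGTGGT. CBF-beta does not touch DNA itself but joins the Runt domain and strengthens its binding. A short peptide at the C terminus of RUNX proteins recruits Groucho/TLE co-repressors, while the ETO family, to which Cbfa2t2 and Cbfa2t3 belong, is named for the translocation that joins its founding member, RUNX1T1, to RUNX1 in human leukaemia, and recruits histone deacetylases. In DC Runx3 is known as a mediator of responses to TGF-beta, whereas Runx2 and Cbfa2t3 are known for their roles in plasmacytoid DC.

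RUNX genes are transcribed from a distal and a proximal promoter. Promoter windows from RefSeq (GRCm38.p6, 250 bases before to 50 bases after a start site) matched all 9 genes, with 13 windows. They are shown for the distal starts of the RUNX genes because these were the 3 of 13 windows that held the RUNX hexamer. The windows follow 5′ to 3′ on the strand of the gene, with capitals marking the hexamer, which in each case was read on the opposite strand as ACCACA. The Runx3 window lies at chr4:135120395-135120694 on the plus strand, that of Runx1 at chr16:92826025-92826324 on the minus strand, and that of Runx2 at chr17:44814578-44814877 on the minus strand.
Runx3 distal: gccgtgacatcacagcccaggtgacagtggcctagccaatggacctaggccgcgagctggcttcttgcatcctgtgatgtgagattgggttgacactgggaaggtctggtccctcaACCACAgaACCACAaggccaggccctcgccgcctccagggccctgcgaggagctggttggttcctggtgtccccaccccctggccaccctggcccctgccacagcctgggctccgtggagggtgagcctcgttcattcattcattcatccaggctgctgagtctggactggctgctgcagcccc
Runx1 distal: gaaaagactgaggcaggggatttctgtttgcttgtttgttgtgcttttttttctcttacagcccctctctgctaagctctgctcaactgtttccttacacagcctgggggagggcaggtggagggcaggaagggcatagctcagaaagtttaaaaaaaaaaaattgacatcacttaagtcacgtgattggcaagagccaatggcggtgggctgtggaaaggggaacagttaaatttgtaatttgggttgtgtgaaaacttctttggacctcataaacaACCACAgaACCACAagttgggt
Runx2 distal: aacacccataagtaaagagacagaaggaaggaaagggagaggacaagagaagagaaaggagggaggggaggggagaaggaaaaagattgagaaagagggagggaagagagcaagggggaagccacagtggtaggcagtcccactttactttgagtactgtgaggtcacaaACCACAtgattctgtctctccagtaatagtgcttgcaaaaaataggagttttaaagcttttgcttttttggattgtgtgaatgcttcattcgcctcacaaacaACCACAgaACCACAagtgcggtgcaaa
The hexamer began at positions -134 and -126 in the Runx3 window, counted from the start site as position 1, at 29 and 37 in the Runx1 window, and at -80, 24 and 32 in the Runx2 window. All 3 windows shared a run of 18 bases, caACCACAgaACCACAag, that holds a pair of hexamers whose starts lie 8 bases apart. This run occurred, on either strand, in 4 of 32851 promoter windows, those of the 3 RUNX genes and that of Gm16225, a long noncoding RNA on the same chromosome as Runx3. For comparison, 16.8% of all windows held the hexamer on either strand and 0.0609% held it with starts 8 bases apart. The proximal windows of Runx3 and Runx1 and the windows of Cbfb, Cbfa2t2, Cbfa2t3, Tle1, Tle3 and Tle4 did not hold these letters. A match describes the sequence only, and binding was not measured in these data.

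The arrays were alike in level, with median log2 values of 6.57 to 6.65. All 10 member probe sets were at or above 6.5, the background level of the study's methods, in all 6 arrays. Of the defining markers of CD4+ DC 11 of 11 were above background in every array, Itgax, H2-Ab1 and Zbtb46 among them, and Cd4 was at 12.68, 12.82 and 12.66 in Runx3-/- against 12.80, 12.81 and 12.45 in WT DC. Irf4, a transcription factor of this subset, passed the threshold at a log2 change of -0.62 (adjusted p = 0.043, limma). Of the 11 markers 6 were lower without overlap, against 14.9% of all tested probe sets (Zbtb46 at -0.35, Flt3 at -0.28 and Cd209a at -0.35 did not pass). Itgam and Sirpa were higher without overlap, against 7.48% of all, and without passing. The mean log2 level of the list was 11.63 to 11.69 in Runx3-/- and 11.71 to 11.80 in WT arrays. Array Runx3-/- 3 stood apart for markers of plasmacytoid DC, with a mean log2 level of 9.11 over 9 markers, against 8.10 and 8.24 in Runx3-/- 1 and 2 and 7.86 to 7.97 in WT arrays. Siglech, the lectin that defines plasmacytoid DC, was at 7.46, 8.18 and 10.18 in Runx3-/- and at 7.45, 7.40 and 7.43 in WT DC. The change of each member without Runx3-/- 3 is given beside its value below, as are those of Smad1, Tbx21 and Irf8.

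To ask whether the RUNX machinery itself differed in cells without Runx3, each probe set was compared between genotypes. Runx3 was the only member past the adjusted threshold, and it fell. Runx1 stood 1.47-fold higher and both probe sets of Cbfa2t3 stood lower in Runx3-/- DC, as did Tle3, with groups that did not overlap but without passing. Cbfb, Cbfa2t2, Tle1 and Tle4 differed by at most 0.13 on the log2 scale. Thus 1 of 10 member probe sets reached an adjusted p of at most 0.05 (limma), where 1.56% of all 19149 tested probe sets did. An unadjusted p of at most 0.05 was reached by 5 of 10, against 15.9% of all, with 1 higher (5.59% of all) and 4 lower (10.3% of all). At the methods' thresholds, an unadjusted p of at most 0.05 with at least a 1.5-fold change, 1 of 10 was called, against 3.95% of all, with 0 higher (2.01% of all) and 1 lower (1.94% of all). Besides, the genotypes did not overlap for 6 of 10, against 22.4% of all. Of these 6, 1 was higher (7.48% of all) and 5 were lower (14.9% of all), and they include Runx3, the targeted gene, and a pair of probe sets for Cbfa2t3. The median log2 change was -0.13 over the 10 member probe sets, as it was without Runx3, and -0.04 over all tested probe sets.

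**Figure D1:**
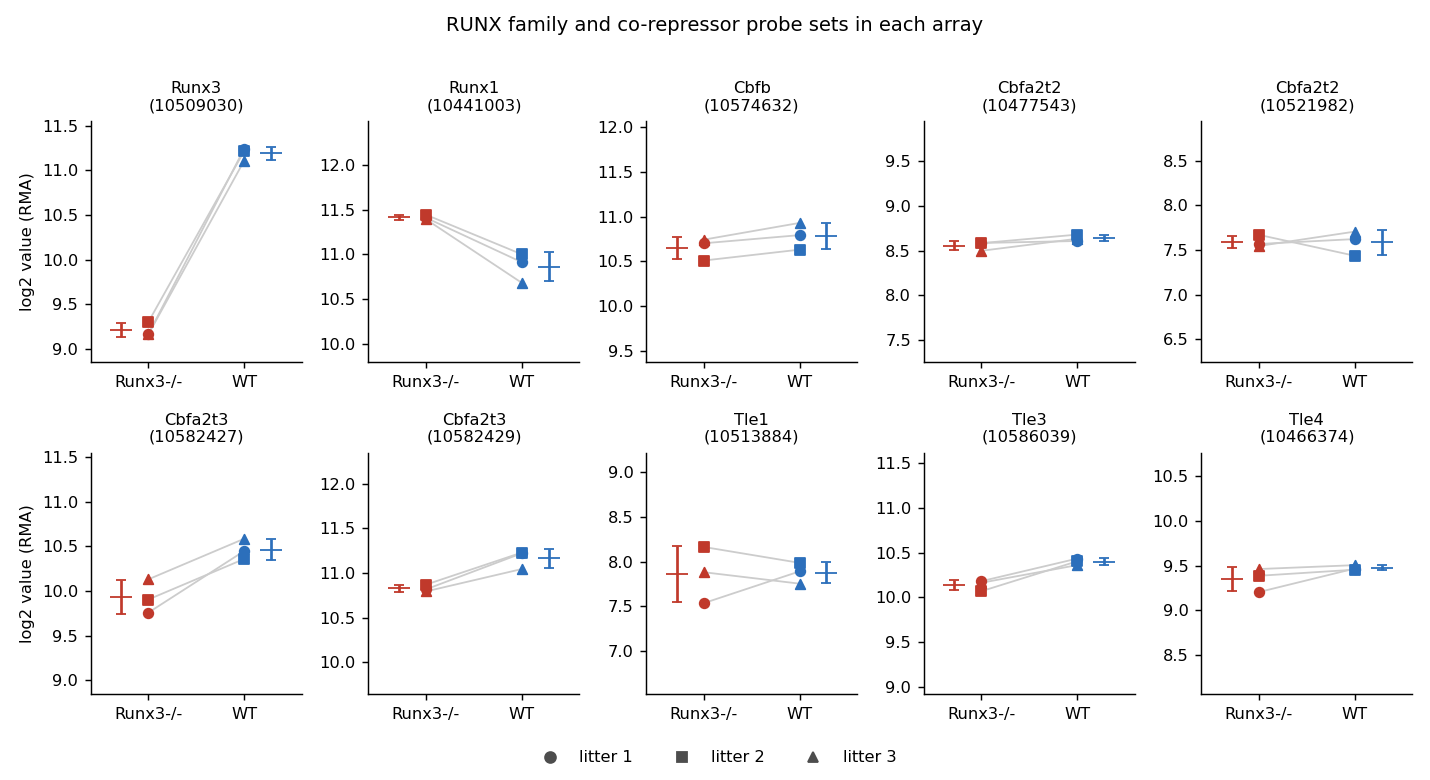
Log2 values of the 10 member probe sets in each array, Runx3-/- in red on the left and WT in blue on the right, with symbols and grey lines for the 3 litters and bars for the mean ± SD of each genotype (n = 3). Every panel spans the same range of log2 units around its own centre; the genotypes lie far apart for Runx3 (means 9.21 and 11.19) and overlap for Cbfb, Tle1, Tle4 and Cbfa2t2 10521982.

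Runx3 (probe set 10509030, Entrez gene 12399) checks the genotype labels. Its log2 value was 9.16, 9.30 and 9.16 in Runx3-/- DC and 11.24, 11.22 and 11.11 in WT DC. Each Runx3-/- array lay well below each WT array, and the values within a genotype spread little. The log2 change was -1.98 (SE 0.08, 95% interval -2.17 to -1.79), a 3.95-fold fall, with an adjusted p of 0.0027 (limma) that was the smallest of all 19149 probe sets. A change of this size or larger was seen for 0.115% of tested probe sets. An exact two-sided permutation test over the 6 arrays gave p = 0.1, the smallest possible with 3 against 3. The adjusted p was 0.061 with the litter as a block and 0.054 without WT 1, so the call was lost there, although the change was -1.96 without Runx3-/- 3 and stayed between -2.03 and -1.94 over 14 alternatives. The remaining 9.21 ± 0.08 (SD, n = 3) in Runx3-/- DC is above background, and where in the transcript its probes lie was not examined. T and NK cells also express Runx3, and 8 of 10 measured T cell markers and 8 of 10 NK cell markers, among them Cd3d, Cd3e, Cd3g and Ncr1, were below 6.5 in every array. Over the genes above background in at least 1 array the T cell list had a mean log2 level of 8.83 to 9.04 in Runx3-/- and 8.84 to 9.08 in WT arrays. The NK cell list rests on 2 genes, Klrd1, which overlapped between genotypes, and Klrk1, which was above 6.5 in Runx3-/- arrays alone, so its mean of 8.94 to 9.58 in Runx3-/- against 8.53 to 8.71 in WT arrays follows Klrk1. Their part in the value of Runx3 was not tested. In sorted populations such as these, fewer cells of a type and less RNA per cell cannot be told apart.

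Runx1 (probe set 10441003), the paralog best known from blood stem cells and leukaemia, was higher in every Runx3-/- array. Its log2 value was 11.41, 11.44 and 11.39 in Runx3-/- DC and 10.91, 10.999 and 10.68 in WT DC. The 3 Runx3-/- values had an SD of 0.03 while the WT values had an SD of 0.17, with WT 3 the lowest. The log2 change was 0.55 (SE 0.10, 95% interval 0.32 to 0.79), or 1.47-fold, and 5.67% of all tested probe sets changed by as much or more. It did not pass (unadjusted p = 0.0011, adjusted p = 0.059, limma), and the exact two-sided permutation test gave the smallest possible p of 0.1. Within litters 1, 2 and 3 the Runx3-/- minus WT differences were 0.50, 0.44 and 0.71. The change was 0.56 without Runx3-/- 3 and 0.46 without WT 3, its lowest value. Over 14 alternatives the adjusted p ranged from 0.034 to 0.21, and with a prior variance that follows intensity it passed at 0.034. The change of Runx1 was thus opposite in sign to that of Runx3 and smaller, and their levels, read by different probes, were not set against each other.

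Monocytes, macrophages, CD8+ DC and plasmacytoid DC can express RUNX and ETO family genes of their own, so their markers are given beside Runx1 and Cbfa2t3. The monocyte markers had a mean log2 level of 9.52 to 9.69 in Runx3-/- arrays and 8.75 to 9.06 in WT arrays over the 5 of 8 genes tested, 4 of them higher without overlap and 0 past the adjusted threshold (4 unadjusted). For comparison, 0.856% of all probe sets passed the threshold as higher and 7.48% were higher without overlap. The red pulp macrophage markers lay at 9.85 to 10.17 in Runx3-/- and 8.56 to 9.14 in WT arrays over the 12 of 14 genes tested. Of these 10 were higher without overlap and 7 rose past the adjusted threshold (limma), namely Mertk by 1.95, C1qc by 1.41, Spic, the transcription factor that defines red pulp macrophages, by 1.40, C1qa by 1.34, C1qb by 1.31, Axl by 1.30 and Timd4 by 0.67 on the log2 scale. Of the tested markers that did not pass, Adgre1 was at 0.01 and Hmox1 at 0.22, while Vcam1 was at 1.39, Mrc1 at 1.23 and Slc40a1 at 1.07. Cd163, and Marco, a gene of marginal zone macrophages, were below 6.5 in every array. Without Runx3-/- 3 0 of these genes passed, with Mertk at 2.01 (adjusted p = 0.080). The plasmacytoid DC markers lay at 8.10 to 9.11 in Runx3-/- and 7.86 to 7.97 in WT arrays over the 9 of 10 genes tested, 5 of them higher without overlap and 0 past the adjusted threshold (3 unadjusted). Among these 5, Cox6a2 was tested only because of Runx3-/- arrays, since all 3 WT arrays were below 6.5. The CD8+ DC markers lay at 8.44 to 8.94 in Runx3-/- and 8.17 to 8.41 in WT arrays over the 9 of 10 genes tested, 3 of them (Irf8, Xcr1 and Naaa) higher and 1 (Batf3) lower without overlap, and Irf8 alone passed. Cd8a, 1 of these 9, was tested only because of Runx3-/- 3, at 6.54, since all other arrays were below 6.5. The part of these markers in the values of Runx1, Cbfa2t3 and the list genes below was not tested.

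CBF-beta is the partner shared by all RUNX factors, and Cbfb RNA (probe set 10574632) differed little. It was at 10.70, 10.51 and 10.74 in Runx3-/- and 10.79, 10.63 and 10.93 in WT DC. The groups overlapped because litter 2 was low in both genotypes, while within each litter the Runx3-/- array was the lower one, by -0.09, -0.12 and -0.19. The log2 change was -0.13 (SE 0.11, 95% interval -0.40 to 0.13, adjusted p = 0.61, limma), and the litter block gave an adjusted p of 0.37. The change was -0.18 without Runx3-/- 3 and -0.06 without Runx3-/- 2. Leaving out WT 2 gave -0.21 and leaving out WT 3 gave -0.06.

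Among ETO family co-repressors Cbfa2t3, which represses with histone deacetylases in blood progenitors, was lower on both of its probe sets. Probe set 10582429 was at 10.82, 10.87 and 10.79 in Runx3-/- and 11.22, 11.23 and 11.05 in WT DC. The genotypes did not overlap, and WT 3 was the nearest WT array to the Runx3-/- ones. Its log2 change was -0.34 (SE 0.08, 95% interval -0.53 to -0.15), or 1.26-fold lower, without passing (adjusted p = 0.11, limma), and -0.32 without Runx3-/- 3.

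Probe set 10582427 of Cbfa2t3 was at 9.76, 9.91 and 10.13 in Runx3-/- and 10.45, 10.36 and 10.59 in WT DC, again without overlap. Array Runx3-/- 3, which had the high plasmacytoid DC markers, was the highest of its genotype here, and was the lowest on probe set 10582429. The log2 change was -0.53 (SE 0.12, 95% interval -0.82 to -0.25, adjusted p = 0.10, limma), or 1.45-fold lower, and -0.63 without Runx3-/- 3. The litter differences were -0.69, -0.45 and -0.46 on this probe set and -0.40, -0.36 and -0.25 on the other. With the mean of both probe sets the log2 change was -0.44 with an adjusted p of 0.051. Over 14 alternatives the adjusted p of the probe sets stayed between 0.070 and 0.37.

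Cbfa2t2, the relative of Cbfa2t3, was near equal between genotypes. Probe set 10477543 was at 8.59, 8.58 and 8.50 in Runx3-/- and 8.61, 8.68 and 8.63 in WT DC, which did not overlap although the log2 change was only -0.08 (SE 0.07, 95% interval -0.24 to 0.08, adjusted p = 0.60, limma) and -0.06 without Runx3-/- 3. Probe set 10521982 was at 7.57, 7.67 and 7.54 in Runx3-/- and 7.62, 7.43 and 7.71 in WT DC, a log2 change of 0.01 (SE 0.09) that was 0.03 without Runx3-/- 3 and turned to -0.03 without Runx3-/- 2 and -0.07 without WT 2. Probe sets with neighbouring identifiers mostly belong to 1 chromosome, as for Runx3, where 10 of the 10 nearest named neighbours are from its own chromosome, but 1 of 10 neighbours of 10521982 is from the chromosome of Cbfa2t2. Which transcript 10521982 reads was not examined. Runx1t1, the founding member of the family, was below background in all arrays, at 4.91, 4.89 and 4.82 in Runx3-/- and 4.78, 4.88 and 4.83 in WT DC.

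**Figure D2:**
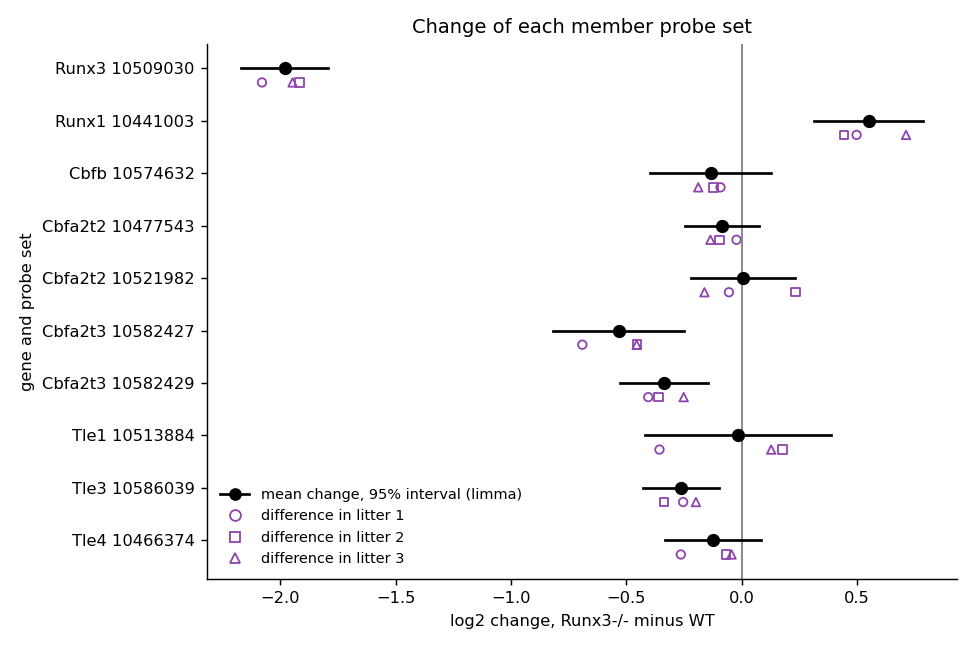
Log2 change of Runx3-/- against WT for each member probe set (filled points, with the 95% interval of the limma fit) and the difference within each litter (open symbols). The intervals of Runx3, Cbfa2t3 and Tle3 lie below 0 and that of Runx1 above 0, whereas those of Cbfb, Cbfa2t2, Tle1 and Tle4 cross it; of the probe sets shown only Runx3 passed the adjusted threshold.

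The Groucho/TLE co-repressors, which RUNX factors and many other repressors recruit, showed small changes. Tle3 (probe set 10586039) was at 10.18, 10.07 and 10.16 in Runx3-/- and 10.43, 10.40 and 10.36 in WT DC. The genotypes did not overlap, and the litter differences were -0.25, -0.34 and -0.20. The log2 change was -0.26 (SE 0.07, 95% interval -0.43 to -0.10), or 1.20-fold lower, and did not pass (adjusted p = 0.14, limma, with 0.11 to 0.43 over 14 alternatives). It was -0.28 without Runx3-/- 3.

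Tle4 (10466374) was at 9.20, 9.39 and 9.46 in Runx3-/- and 9.47, 9.46 and 9.51 in WT DC. The groups overlapped, and Runx3-/- 1 was the low array. Its log2 change was -0.13 (SE 0.09, 95% interval -0.33 to 0.08, adjusted p = 0.54, limma), which was -0.05 without Runx3-/- 1 and -0.18 without Runx3-/- 3. Tle1 (10513884) was the most variable member, at 7.54, 8.17 and 7.88 in Runx3-/- and 7.89, 7.99 and 7.75 in WT DC. The Runx3-/- values surrounded those of WT, with litter differences of -0.36, 0.18 and 0.13. The log2 change was -0.02 (SE 0.17, 95% interval -0.42 to 0.39, adjusted p = 0.97, limma), and its sign was not stable, since it was 0.15 without Runx3-/- 1 and -0.03 without Runx3-/- 3. Of the other TLE genes, Tle5, a short family member that can oppose the others, was at 11.21, 11.13 and 11.15 in Runx3-/- and 11.19, 11.25 and 11.18 in WT DC (log2 change -0.04, SE 0.06), while Tle2 and Tle6 were below background in every array.

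**Figure D3:**
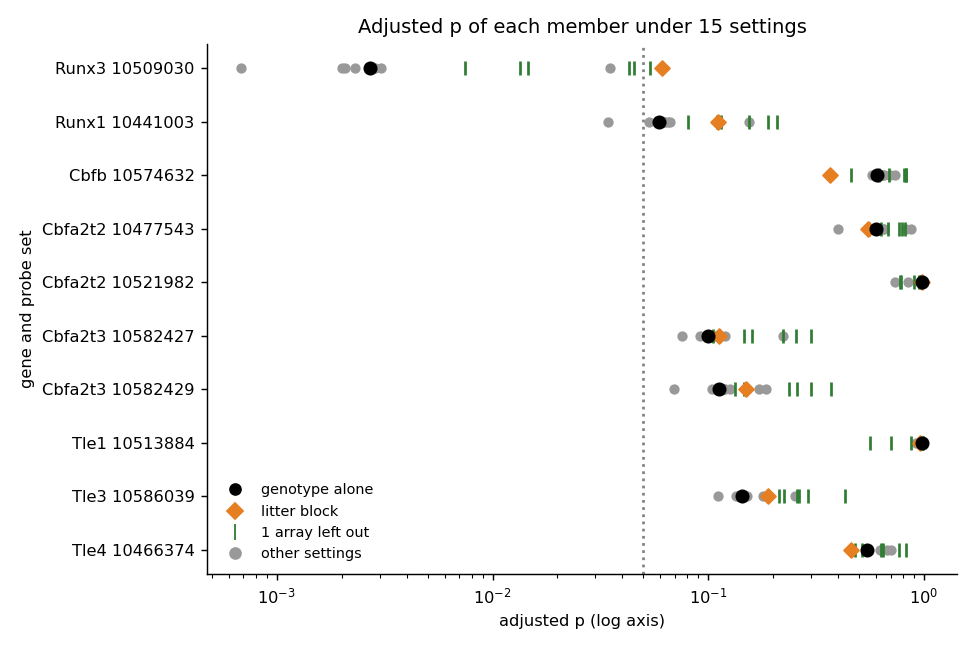
Adjusted p (logarithmic axis) of each member probe set in the fit with genotype alone (black), with the litter as a block (orange), with 1 array left out (green) and under the other settings (grey), with the threshold of 0.05 as a dotted line. Runx3 crosses the line with the litter block (0.061) and without WT 1 (0.054), Runx1 lies below it under 1 setting (0.034), and the other probe sets stay above it.

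Genes that work with RUNX factors were then counted from lists chosen for their roles, to be read against all probe sets, of which 1.56% passed and 15.9% had an unadjusted p of at most 0.05. In the list of co-repressor enzymes and scaffolds 0 of 17 genes passed (limma, 3 at an unadjusted p of at most 0.05, 0 with the methods' analysis of variance after adjustment), with a median log2 change of -0.07. The histone deacetylase Hdac9 had the lowest p there and was at 9.21, 9.62 and 9.01 in Runx3-/- against 10.58, 9.95 and 10.22 in WT DC, a log2 change of -0.97 (SE 0.21) without passing (adjusted p = 0.099). Hdac6, a cytoplasmic deacetylase, was at -0.37 (SE 0.13), Gps2, a subunit of the NCoR complex, at -0.23 (SE 0.08), and the scaffold Sin3a at -0.15 (SE 0.07). Hdac3, the deacetylase of NCoR complexes, was at -0.01 (SE 0.07).

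Among co-activators and modifying enzymes 0 of 24 genes passed (limma, 6 at an unadjusted p of at most 0.05, 0 with the methods' analysis of variance after adjustment), with a median of -0.05. Cdk6, a cell cycle kinase that binds Runx1, was nearest to the threshold. It was at 9.63, 9.71 and 9.67 in Runx3-/- and 8.79, 8.66 and 9.15 in WT DC, a log2 change of 0.80 (SE 0.13, adjusted p = 0.051, limma). Ccnd3, a D-type cyclin, was at -0.34 (SE 0.07), and the acetyltransferase Kat6b at -0.38 (SE 0.08), while the kinase Src, also counted among the 6, was above 6.5 in Runx3-/- 1 alone, at 6.66. Of the ubiquitin ligases that act on RUNX proteins 0 of 12 passed (limma, 6 at an unadjusted p of at most 0.05, 0 with the methods' analysis of variance after adjustment), with Skp2 at 0.46 (SE 0.08), Nedd4 at -0.44 (SE 0.09), Wwp2 at -0.25 (SE 0.08) and Wwp1 at 0.21 (SE 0.07). The median of that list was -0.04. With a prior variance that follows intensity 2 co-activators and 1 ligase passed. With quantile normalization, and with median centring, 1 gene of each list passed.

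DNA-binding partners of RUNX factors held 2 genes that fell, among 24 tested, and 0 that rose, against 0.7% lower and 0.856% higher of all probe sets (11 of 24 at an unadjusted p of at most 0.05, against 15.9%). Ets2, counted among the 11, was tested only because of Runx3-/- 1 and 2, at 6.71 and 7.05, since all WT arrays were below 6.5. Smad1, a mediator of BMP signals, was at 8.02, 8.06 and 8.13 in Runx3-/- and 8.55, 8.57 and 8.55 in WT DC. The arrays of a genotype were close together, and the log2 change was -0.49 (SE 0.06, adjusted p = 0.030, limma). Tbx21, which encodes T-bet and acts with Runx3 in T cells, was at 8.95, 8.93 and 8.91 in Runx3-/- and 9.58, 9.40 and 9.76 in WT DC (log2 change -0.65, SE 0.10, adjusted p = 0.043). Tcf12, an E protein, was at 0.46 (SE 0.08, adjusted p = 0.056) and Smad3, a mediator of TGF-beta signals that RUNX proteins bind, at 1.04 (SE 0.18, adjusted p = 0.056), both without passing. The median of the list was -0.04. With a prior variance that follows intensity, and with a filter in at least 3 arrays, 4 genes of the list passed. Without Runx3-/- 3 Smad1 was at -0.51 (adjusted p = 0.078) and Tbx21 at -0.64 (adjusted p = 0.13), and 0 genes of the list passed in 5 of 6 fits with 1 array left out, all but that without WT 2.

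Leukocyte genes known as RUNX targets had a median log2 change of 0.14, with 1 of 24 tested genes higher and 1 lower past the threshold, against 0.856% higher and 0.7% lower of all probe sets, and 7 of 24 at an unadjusted p of at most 0.05. The lower one was Tbx21 again, and the higher one was Irf8, a transcription factor of CD8+ and plasmacytoid DC, at 9.96, 9.66 and 10.47 in Runx3-/- and 8.63, 8.79 and 8.69 in WT DC (log2 change 1.33, SE 0.20, adjusted p = 0.042, limma), highest in Runx3-/- 3. Without that array the log2 change of Irf8 was 1.11 (adjusted p = 0.058), and 0 genes of this list passed in 4 of 6 fits with 1 array left out, all but those without Runx3-/- 2 and without WT 2. Bcl2, an inhibitor of cell death, was at 0.48 (SE 0.08, adjusted p = 0.051) and Csf1r, the receptor of macrophage colony-stimulating factor, at 0.53 (SE 0.15, adjusted p = 0.16). Spi1, which encodes PU.1, was at -0.11 (SE 0.08) and Zbtb7b, a gene that RUNX factors silence in CD8+ T cells, at -0.19 (SE 0.08), neither passing. Cd8a, counted in the median of the list, was tested only because of Runx3-/- 3, at 6.54, since all other arrays were below 6.5. With the litter as a block, and with the methods' analysis of variance after adjustment, 0 genes of these lists passed. With the block this held for 0 of all 19149 probe sets too, of which 3430 had an unadjusted p of at most 0.05. Without WT 1 the count over all probe sets was 0 too (1972 unadjusted), and without Runx3-/- 3 it was 1, Runx3 itself.

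**Figure D4:**
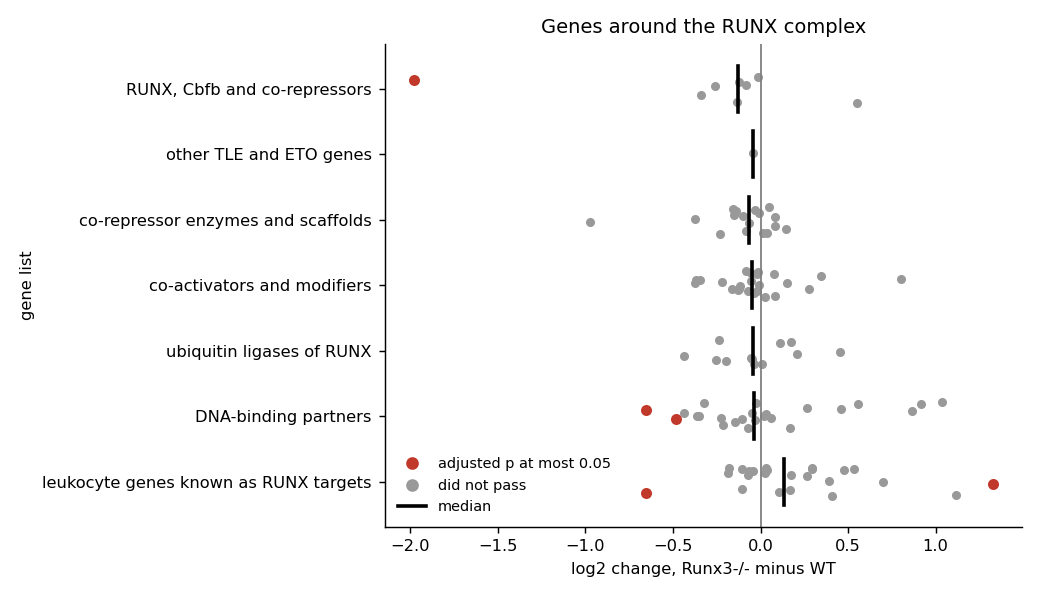
Log2 change of Runx3-/- against WT for the tested genes of the RUNX, CBF-beta and co-repressor group and of 6 further lists, 1 point a gene, with the median of each list as a black line. Red points are Runx3 at -1.98, Smad1 at -0.49, Tbx21 at -0.65 (in both of the lists it belongs to) and Irf8 at 1.33, which passed an adjusted p of 0.05.

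Finally, genes whose 6 values followed the RUNX genes most closely were named by the root mean square distance between profiles, each centred on its own mean, over 9921 other genes. This is a description, since any gene that separates the genotypes by a like amount lies near. Nearest to Runx3 were Dab2ip, a regulator of Ras signalling, at a distance of 0.21 log2 units and with a log2 change of -1.63, Klra5, a receptor of the Ly49 family that was below background in all Runx3-/- arrays, at 0.29, and Mical2, an enzyme that acts on actin, at 0.30. Nearest to Runx1 were Tnfsf15, a ligand of the TNF superfamily, at 0.03 and with a log2 change of 0.57, Kctd12b at 0.06 and Tnfaip2, a gene induced by TNF, at 0.07. Kctd12b passed the adjusted threshold with a log2 change of 0.60 (adjusted p = 0.031, limma), whereas Tnfsf15 (adjusted p = 0.061) and Tnfaip2 (adjusted p = 0.11) did not.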

How the data were processed

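RNA of CD4+ DC was hybridised to 6 Affymetrix arrays, 3 from Runx3-/- and 3 from WT mice, grouped by the genotype in the labels. The authors summarised the arrays in Partek with RMA and a GC correction and deposited log2 values. RMA normalizes arrays toward 1 distribution, which can remove a shift common to most genes, and it compresses the fold changes of dim probe sets. In the deposited values the array medians still ran from 6.57 to 6.65. The median log2 change over all tested probe sets was -0.04, and -0.006 after quantile normalization. The submitters' notes name mm9 as build, with tool versions not given in the sources used here. An exon array is named in the methods, but the annotation of the probe sets is that of a gene-level array.

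The 35399 probe sets were used as deposited. Of them 21789 had 1 gene symbol, 1621 several and 11989 none, and a check through Entrez numbers against RefSeq (GRCm38.p6) changed 0 symbols. Those that reached log2 6.5 on 1 or more arrays were tested, 19149 in all, in R 4.3.3 with limma 3.58.1 (two-sided, genotype alone, Benjamini-Hochberg over all tested probe sets, threshold 0.05). The fit was first tested on simulated data with independent arrays and no litter effect, which does not cover the litter pairs. Where lists needed 1 value a gene, the probe set with the highest mean was used. Members and lists were chosen with earlier results of these data known. Named genes were all members, up to 4 genes of each RUNX-related list with the smallest p, genes past the threshold, and the 3 nearest profiles of Runx3 and Runx1; Hdac3, Spi1, Zbtb7b, Runx1t1, Tle2 and Tle6 were named besides, after their values were seen, as were marker genes. The labels pair littermates, and deviations from the genotype means correlated at 0.16, 0.10 and 0.25 (Pearson, across probe sets) within litters 1, 2 and 3. Between litters the correlations were -0.23 to 0.10. Array Runx3-/- 2 correlated at 0.10 with WT 1 too, so these values do not single out the pair of litter 2. P-values measure the spread between mice, and the number of arrays limits their precision.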

Additional observations from a re-analysis of the deposited data

How the results depend on the processing

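Alternatives were no filter, a filter in at least 3 arrays, quantile normalization, median centring, the litter as a replicate block, the methods' one-way analysis of variance, limma with an intensity trend or a robust prior, each array left out in turn, and the mean of all probe sets of a gene. With the replicate block the log2 change of Runx3 remained -1.98 but its adjusted p was 0.061, so 0 members and 0 of all tested probe sets (3430 unadjusted) passed, and the block changed the call of no other member. By the adjusted analysis of variance 6 of all tested probe sets passed. With the intensity trend Runx1 passed at 0.55, which made 2 members past the threshold. Median centring made 2 members past the methods' thresholds, since Runx1 was then at 0.59. The change of Tle1 turned to 0.047 with quantile normalization and to 0.024 with median centring.

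With 1 array left out, the number of probe sets past the adjusted threshold was 0 to 205, against 298 with all arrays. Omitting Runx3-/- 1 left 40 and omitting Runx3-/- 3 left 1, and omitting WT 1, WT 2 or WT 3 left 0, 137 or 75. The log2 change of Runx3 was -2.03 to -1.96, and members past the adjusted threshold numbered 0 (without WT 1) to 1 and those past the methods' thresholds 1 to 3 (2 without Runx3-/- 3 and 3 without WT 2). The change of Tle1 was -0.17 to 0.15 and that of Cbfa2t2 10521982 was -0.070 to 0.065. Runx1, Cbfb, Cbfa2t2 10477543, Cbfa2t3, Tle3 and Tle4 kept their direction under all 14 alternatives. The median change over the members was -0.18 to -0.09 over the 14 alternatives. Of 238 list counts under alternatives, 177 were equal to the value reported or within 1.5 times it, and 61 were not. Most of the 177 were counts of 0 that stayed 0. Among lists with calls, the red pulp macrophage markers had 7 with all arrays and 0 to 4 with 1 array left out. Changes of list genes without Runx3-/- 3 were added after seeing the data.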
